A study of Mus musculus with 5 samples.

Results

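The cluster of miR-221 and miR-222 is a pair of microRNA (miRNA) hairpins on the mouse X chromosome that give 4 mature strands: mmu-miR-221-3p, mmu-miR-221-5p, mmu-miR-222-3p and mmu-miR-222-5p, named below without the species prefix. These strands were taken by name from the deposited table, so they are 4 of its 1966 miRNAs, and all 4 had counts. Small RNA was sequenced from extracellular vesicles (EVs), which cells shed into their medium, here from cultured murine mesenchymal stem cells of C57BL/6-GFP transgenic mice. One group was not freeze-dried (2 libraries) and the other was freeze-dried (3 libraries). The cells of both groups were kept for 48 h in serum-reduced medium before their small EVs were pelleted at 100000 g. The protocols, worded alike for both groups, name a buffer with 25 mM trehalose among those in which EVs were held, so trehalose is not a stated difference between the groups. The freeze-dried EVs were frozen at -80 °C in such a buffer, dried overnight and left in water for 1 h. The labels do not give the promoter of the GFP transgene, the age of the mice, or whether replicates came from separate cultures. The p-values therefore measure the spread between these libraries, which may be technical.

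A miRNA hairpin is cut into a short duplex, and 1 strand of it, the guide, is kept by an Argonaute protein and pairs with messenger RNAs through its seed, the bases near its 5′ end. In both hairpins of the cluster the 3p strand is known as the guide, and the pair is usually described as coming from a shared primary transcript. miR-221 and miR-222 are best known for repressing Cdkn1b, the cell cycle inhibitor p27, and Kit, a receptor tyrosine kinase, and they are abundant in mesenchymal and endothelial cells.

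The mature sequences below (RefSeq, GRCm38.p6) are shown because the 3p strands share their seed, bases 2 to 8 from the 5′ end, which is in capitals. miR-1928 is listed as the one other RefSeq entry with that seed.
miR-221-3p: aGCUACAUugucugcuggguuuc
miR-222-3p: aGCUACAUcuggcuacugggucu
miR-1928: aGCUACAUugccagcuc
miR-221-5p: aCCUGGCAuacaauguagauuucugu

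Both 3p strands are 23 bases long and were identical over their first 8 bases. Over the remaining bases they differed at 12 positions when laid side by side without gaps, so a full-length read of one differs from the other. Among 1679 mature names in the RefSeq table, 3 had the seed GCUACAU: miR-221-3p, miR-222-3p and miR-1928. miR-1928, from chromosome 1, begins with the same 10 bases as miR-221-3p but had 0 counts in all 5 libraries. Among the RefSeq names, all 152484 counts with this seed therefore belonged to the cluster, 101091 to miR-221-3p and 51393 to miR-222-3p. The deposited table has 1966 rows, and rows without a RefSeq mature entry, miR-222-5p among them, were not searched. The seed of miR-221-5p, CCUGGCA, was found in no other entry. Each of the printed mature sequences occurred in 1 of 1005 hairpins, so none has a second exact source among them.

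The hairpins are shown next, with the RefSeq mature strands in capitals, to place the strands on their arms.
miR-221: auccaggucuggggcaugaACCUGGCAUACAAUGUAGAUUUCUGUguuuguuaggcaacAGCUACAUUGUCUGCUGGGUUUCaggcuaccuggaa
miR-222: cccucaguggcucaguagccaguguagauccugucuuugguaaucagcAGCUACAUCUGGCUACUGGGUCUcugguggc

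Mir221 lies at chrX:19146294-19146388 and Mir222 at chrX:19146893-19146971 (GRCm38), both on the minus strand, with 504 bases between them. Transcription on that strand passes Mir222 first. In GENCODE M21 both are miRNA genes of 1 exon, and 0 other genes overlap the interval that holds them. The nearest gene on the side of Mir222 is Gm14636, a processed transcript on the same strand, 10009 bases away. On the other side the nearest is Gm5383, a processed pseudogene, 203065 bases away. In folds predicted with RNAfold, 21 of the 23 bases of miR-221-3p and 19 of the 23 of miR-222-3p were paired with the opposite arm, at -42.8 and -40.7 kcal/mol for the whole hairpins.

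The libraries held between 131507 and 2914305 miRNA counts in all. Not freeze-dried replicate 2 and freeze-dried replicate 3 had under 500000 counts and are called shallow, and the other 3 are called deep. A list of 14 mesenchymal and fibroblast miRNAs took 25.5% to 27.6% of a library without freeze-drying and 17.8% to 21.5% after it. All 14 were tested between the groups and 0 were called at an edgeR adjusted p under 0.05. Fitted fold changes were above 1 for 4 of them and below it for 10, with a median log2 of -0.30 against 0.02 over all tested miRNAs. Raw shares lower in all freeze-dried libraries were found for 9.79% of single tested miRNAs. The leukocyte miRNAs miR-142a-3p and miR-142a-5p, and the epithelial miR-200c-3p, miR-141-3p and miR-429-3p, had 0 counts. Other members of those lists were present: leukocyte miR-150-5p had means of 135 CPM without freeze-drying and 14.8 CPM after it, miR-223-3p 47.6 and 35.2, and epithelial miR-203-3p 686 and 240.2. The endothelial miR-126a-3p and miR-126a-5p together took 0.0160% to 0.0403% in not freeze-dried EVs and 0.00623% to 0.0218% in freeze-dried EVs.

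miR-221-3p, the more abundant guide, was among the leading miRNAs of these EVs and hardly varied in normalised level. Levels are given as CPM, a library's counts scaled to a common total after TMM normalisation, which scales each library by the bulk of its miRNAs. It stood at 16813 and 15561 CPM in not freeze-dried replicates 1 and 2, from 17131 and 2030 counts. In freeze-dried replicates 1, 2 and 3 it stood at 14856, 14847 and 16444 CPM, from 40825, 38217 and 2888 counts. The groups overlapped, and the highest library was 1.13 times the lowest. By raw counts it ranked 14th to 19th in its library.

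miR-222-3p, the second guide, was lower in every library and varied more after TMM normalisation. It stood at 7265 and 9176 CPM in not freeze-dried replicates 1 and 2, from 7403 and 1197 counts. In freeze-dried replicates 1, 2 and 3 it stood at 8770, 6655 and 8900 CPM, from 24099, 17131 and 1563 counts. The highest library was 1.38 times the lowest. Each group held a low library, not freeze-dried replicate 1 or freeze-dried replicate 2, and the groups overlapped. Its rank in the libraries ran from 26th to 36th.

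The 5p strands, which are the passenger strands of the hairpins, were rare. miR-221-5p had 13 and 3 counts in not freeze-dried replicates 1 and 2, or 12.8 and 23.0 CPM. It had 247, 0 and 5 counts in freeze-dried replicates 1, 2 and 3, or 89.9, 0 and 28.5 CPM. Of its 268 counts, 247 came from 1 library. In freeze-dried replicate 2, a deep library, a count of 0 allows a share of up to 0.000121% of all counts, against 0.00848% (exact binomial 95% interval 0.00745 to 0.00960) in freeze-dried replicate 1.

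miR-222-5p had 0 and 27 counts in not freeze-dried replicates 1 and 2, or 0 and 207 CPM. It had 94, 92 and 40 counts in freeze-dried replicates 1, 2 and 3, or 34.2, 35.7 and 228 CPM. The high values were those of the 2 shallow libraries, 1 in each group. The 3 deep libraries had a mean of 23.3 CPM and the 2 shallow ones a mean of 217 CPM. Among all 327 miRNAs tested between the groups, both shallow libraries stood above every deep one in 15.6%. The part of library depth in the level of miR-222-5p was not tested. The limits and intervals given here reflect counting error alone, because no molecular identifiers tell reads of 1 molecule apart.

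**Figure D1:**
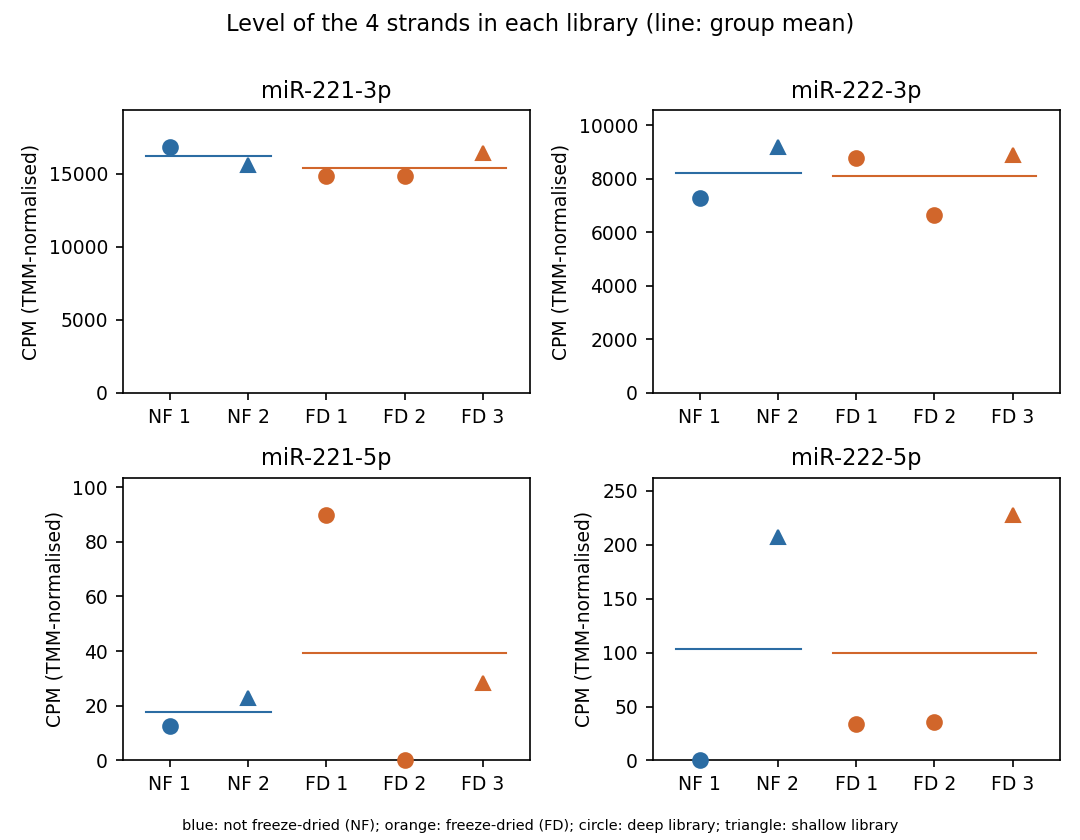
TMM-normalised CPM (y axis, linear, from 0) of each strand in the 5 libraries (x axis), with a line at each group's mean. miR-221-3p lies between 14847 and 16813 CPM in all 5, while miR-222-5p is at 207 and 228 CPM in the shallow libraries and at 0 to 35.7 CPM in the deep ones.

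The order of mean levels over the 5 libraries was miR-221-3p at 15704 ± 902 CPM, miR-222-3p at 8153 ± 1120, miR-222-5p at 100.9 ± 107 and miR-221-5p at 30.8 ± 34.8 (SD, n = 5). The 3p strands did not overlap with each other or with the 5p strands in any library, whereas the 5p strands changed order between libraries. Counts of different sequences also depend on how well each is captured, which was not measured here. Over all miRNAs miR-221-3p ranked 15th by mean CPM, between miR-99b-5p at 15771 ± 2749 CPM and let-7i-5p at 15353 ± 4137 (SD, n = 5). miR-222-3p ranked 27th, between miR-423-3p at 8594 ± 1289 CPM and miR-191-5p at 7852 ± 955 (SD, n = 5). Each of these neighbours differed from its member by less than the spread between libraries. miR-222-5p ranked 191st and miR-221-5p 281st, and their neighbours also lay within the spread: miR-6238 at 102 ± 81.3 CPM and miR-202-5p at 100.3 ± 87.8 CPM for the former, miR-29c-3p at 31.9 ± 35.5 CPM and miR-499-5p at 29.9 ± 40.8 CPM for the latter (SD, n = 5).

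The series asks whether freeze-drying alters the miRNA content of the EVs. None of the 4 strands passed the test of that contrast. miR-221-3p stood at 16187 ± 885 CPM without freeze-drying (SD, n = 2) and at 15382 ± 920 CPM after it (SD, n = 3). Its fold change was 0.95 (log2 -0.07, SE 0.25, 95% interval -0.64 to 0.49, edgeR quasi-likelihood test, adjusted p = 0.98). The means of miR-222-3p were 8221 ± 1351 CPM before (SD, n = 2) and 8108 ± 1260 CPM afterwards (SD, n = 3). Its fold change was 0.99 (log2 -0.02, SE 0.29, interval -0.67 to 0.63, edgeR adjusted p = 0.99). The CPM values of the groups overlapped for all 4 strands.

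For both guides the 95% interval excluded a 2-fold change either way, running from 0.64 to 1.41 for miR-221-3p and from 0.63 to 1.54 for miR-222-3p. That held for 28 of the 89 tested miRNAs with at least 1000 CPM, or 31.5%, and for 8.56% of all tested. Smaller changes cannot be told from none with 2 libraries against 3. A change common to all miRNAs would leave no trace in CPM, which are relative. Fewer EVs that carry a miRNA and fewer copies per EV cannot be told apart either.

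The passenger strands gave no usable fold change. miR-221-5p had a mean of 17.9 ± 7.2 CPM without freeze-drying (SD, n = 2) and of 39.5 ± 45.9 CPM after it (SD, n = 3). On the log2 scale the fold change was 1.17 (SE 2.85, 95% interval from -5.22 to 7.56, edgeR adjusted p = 0.98), and it was -0.39 without freeze-dried replicate 1. miR-222-5p had means of 103 ± 146 CPM (SD, n = 2) and 99.2 ± 111 CPM (SD, n = 3). Here the log2 fold change was -0.05 (SE 2.17, 95% interval from -4.90 to 4.80, edgeR adjusted p = 0.99), and it ran from -1.41 without freeze-dried replicate 3 to 10.3 without not freeze-dried replicate 2, which leaves a not freeze-dried library with 0 counts.

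**Figure D2:**
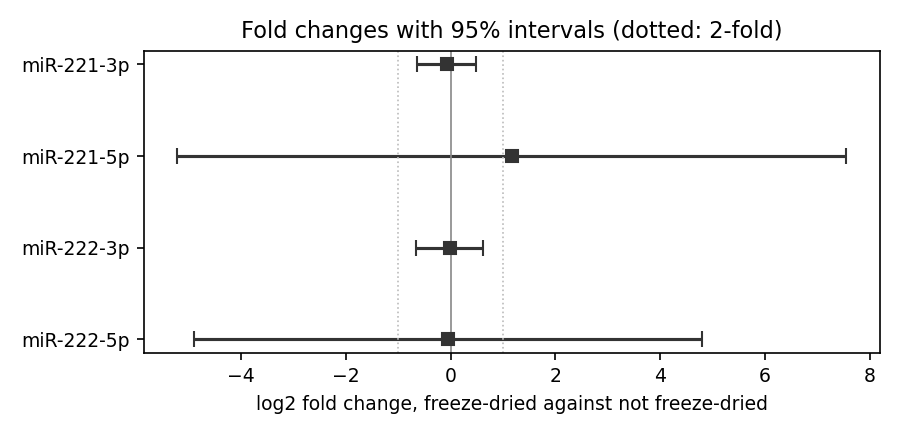
Log2 fold change of each strand, freeze-dried over not freeze-dried (x axis), with its 95% interval from edgeR. Dotted lines mark 2-fold. The 3p strands lie within them, from -0.67 to 0.63 at the widest, and the 5p strands reach from -5.22 to 7.56.

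These results stood in a table where edgeR called 0 of 327 miRNAs higher and 0 lower, or 0% each, with a lowest adjusted p of 0.98. At an unadjusted p under 0.05 it had 9 miRNAs, or 2.75%, and 0 of the 4 strands. DESeq2 and limma-voom also called 0, with 16 miRNAs each at an unadjusted p under 0.05. Groups without overlap in CPM were found for 57 of the 327, or 17.4%. The fitted fold change was below 1 for 3 of the 4 strands and for 48.9% of all tested miRNAs.

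Summed over the 4 strands, the cluster stood at 24091 and 24967 CPM in not freeze-dried EVs and at 23750, 21537 and 25600 CPM in freeze-dried EVs. The means were 24529 ± 619 (SD, n = 2) and 23629 ± 2034 (SD, n = 3), and the groups overlapped (exact two-sided permutation p = 0.80, smallest possible 0.2). As a share of all counts, with no normalisation, the cluster took 2.69% and 2.48% in not freeze-dried EVs and 2.24%, 2.24% and 2.34% in freeze-dried EVs. On that scale the groups did not overlap, with means of 2.58% ± 0.15 (SD, n = 2) and 2.27% ± 0.06 (SD, n = 3), and the exact two-sided permutation test gave p = 0.20, the lowest value possible with these group sizes. Single miRNAs with raw shares lower in all freeze-dried libraries made up 9.79% of those tested. Neither guide was among them, since both overlapped on raw shares as well. For miR-221-3p that overlap was narrow, at 1.545% in freeze-dried replicate 2 against 1.544% in not freeze-dried replicate 2. The mesenchymal list's share, given above, was also lower in every freeze-dried library. The part of the other abundant miRNAs in this difference was not tested.

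Within depth classes the guides moved little and not in 1 direction. Among deep libraries miR-221-3p had a mean of 14851 CPM in freeze-dried EVs against 16813 CPM in the 1 not freeze-dried library, a ratio of 0.88. Among shallow ones it had 16444 against 15561 CPM, a ratio of 1.06. For miR-222-3p the ratios were 1.06 among deep and 0.97 among shallow libraries. With 1 not freeze-dried library in each class these are values without a test.

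The balance between the guides differed between libraries more than counting error allows, but not along the groups. miR-222-3p made up 30.2% of the 3p counts (95% interval, exact binomial, of 29.6 to 30.8) for not freeze-dried replicate 1 and 37.1% (35.4 to 38.8) for replicate 2. In freeze-dried replicates 1, 2 and 3 its share was 37.1% (36.7 to 37.5), 30.95% (30.6 to 31.3) and 35.1% (33.7 to 36.5). Not freeze-dried replicate 1 and freeze-dried replicate 2 were the low ones, both of them deep, while freeze-dried replicate 1, the deepest, was among the high ones. The means were 33.6% ± 4.9 (SD, n = 2) and 34.4% ± 3.1 (SD, n = 3), closer to each other than libraries of 1 group were (exact two-sided permutation p = 0.80). Put as a ratio, miR-221-3p had 2.31 and 1.70 counts for each count of miR-222-3p in not freeze-dried EVs, and 1.69, 2.23 and 1.85 in freeze-dried EVs. Such ratios within a library do not depend on its total.

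The passenger strands took a small part of each hairpin's counts. The 5p share of miR-221 was 0.0758% (0.0404 to 0.1296) and 0.148% (0.0304 to 0.431) in not freeze-dried replicates 1 and 2. It was 0.601% (0.529 to 0.681), 0% and 0.173% (0.0561 to 0.403) in freeze-dried replicates 1, 2 and 3, where 0 of 38217 counts allows up to 0.00965%. Beyond counting error, freeze-dried replicate 1 stood above the other libraries and freeze-dried replicate 2 below them. The group means were 0.112% ± 0.051 (SD, n = 2) and 0.258% ± 0.310 (SD, n = 3), and they overlapped (exact two-sided permutation p = 0.80).

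The 5p share of miR-222 was 0% and 2.21% (1.46 to 3.19) in not freeze-dried replicates 1 and 2, where 0 of 7403 counts allows up to 0.0498%. It was 0.389% (0.314 to 0.475), 0.534% (0.431 to 0.655) and 2.50% (1.79 to 3.38) in freeze-dried replicates 1, 2 and 3. The shallow libraries had a mean of 2.35% and the deep ones of 0.308%. Between the groups the means were 1.103% ± 1.56 (SD, n = 2) and 1.14% ± 1.18 (SD, n = 3), again with overlap (exact two-sided permutation p = 0.80). The 3 shares and the summed level made 4 such comparisons, and the adjusted p was 0.80 for each (exact permutation tests, Benjamini-Hochberg).

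**Figure D3:**
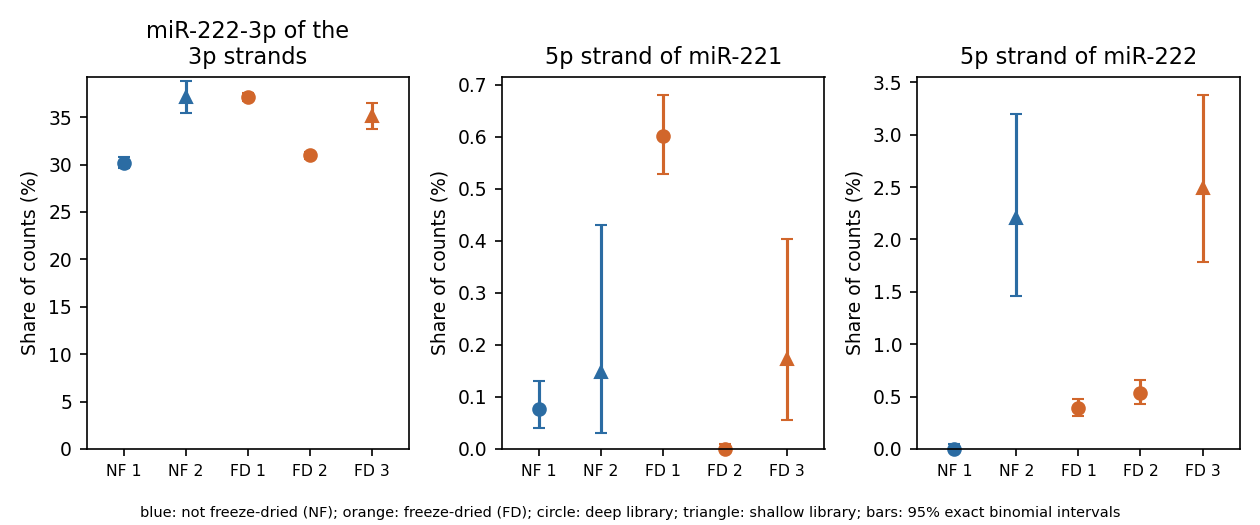
Share of counts in percent (y axes, from 0) in each library: miR-222-3p among the 3p strands, and the 5p strand of each hairpin. Bars are exact binomial 95% intervals. The miR-222-3p share is 30.2% and 30.95% in 2 libraries and 35.1% to 37.1% in the other 3, and the 5p share of miR-222 is above 2% only in the shallow libraries (triangles).

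Strand balance was compared with that of other hairpins, with the 5 libraries summed. The comparison took the 103 hairpins with at least 1000 counts whose 5p and 3p strands have the same name apart from the arm. Hairpins whose strands are named differently, such as miR-125b-5p and miR-125b-1-3p, were left out. Of these, 49 had more 3p than 5p counts, and their median 5p share was 1.04%. miR-221 had a 5p share of 0.264%, between miR-29a at 0.211% and miR-23a at 0.370%, and ranked 14th from the lowest. miR-222 had 0.490%, between miR-574 at 0.455% and miR-199b at 0.616%, and ranked 18th. The hairpins below them included 10 with 0 counts of the 5p strand. These ranks rest on summed counts, which come mostly from the deep libraries. As means over the deep libraries, miR-221 had 0.226% and miR-222 0.308%, against a median of 1.16% for the 49. Over the shallow ones miR-221 had 0.160% and miR-222 2.35%, against a median of 1.48%, so miR-222 was above the median there.

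**Figure D4:**
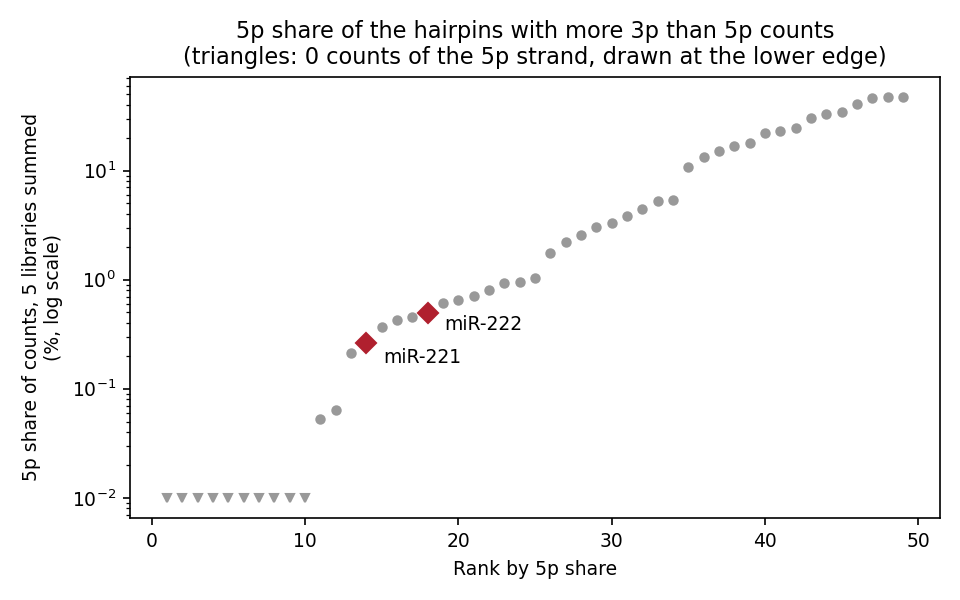
The 5p share of counts (y axis, log scale, in percent, 5 libraries summed) of the 49 name-matched hairpins with more 3p than 5p counts, in order of that share (x axis). miR-221 at 0.264% and miR-222 at 0.490% are marked, and triangles are the 10 hairpins with no 5p count.

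miR-221-3p had the smallest spread of the 89 tested miRNAs with at least 1000 CPM, both with TMM and with RLE normalisation. Its log2 CPM had an SD of 0.08 over the 5 libraries, against a median of 0.39 for the 89 and 0.15 for the next, miR-103-3p. Counting error alone would give it about 0.02. With RLE size factors its SD was 0.12, with miR-103-3p at 0.13. With library totals only it was 0.16 and ranked 5th, behind miR-25-3p with the smallest at 0.12. With libraries thinned to equal depth and no further normalisation it was 0.16 and ranked 3rd. In the 3 deep libraries alone it was 0.10 and ranked 10th. In the 3 freeze-dried libraries alone it was 0.085 and ranked 3rd, behind miR-103-3p at 0.035 and miR-532-5p at 0.066. Without 1 library in turn it ranked 1st or 2nd. This measure was chosen after earlier results of these data were known, and the rank is a description of 5 libraries.

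miR-222-3p had an SD of 0.21 and ranked 12th of the 89 with TMM, and 3rd at 0.14 with library totals only. With those totals it therefore stood ahead of miR-221-3p. After thinning to equal depth it ranked 2nd at 0.156, and miR-221-3p ranked 3rd at 0.158. miR-222-3p ranked 25th in the 3 deep libraries and 26th in the 3 freeze-dried ones.

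**Figure D5:**
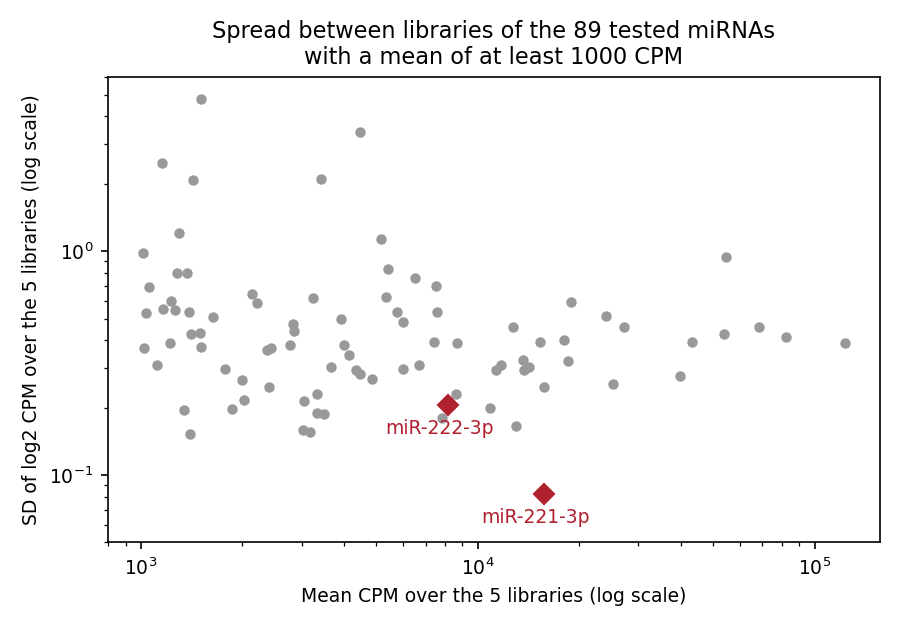
SD of log2 CPM over the 5 libraries (y axis, log scale) against mean CPM (x axis, log scale) for the 89 tested miRNAs with at least 1000 CPM. miR-221-3p at 0.08 is the lowest point with this TMM normalisation, and miR-222-3p at 0.21 is the 12th from the bottom.

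By the measure used here, the guides were not each other's closest match across the libraries. Likeness was the root mean square difference of log2 CPM after each miRNA was centred on its own mean, over 5 libraries and among the 88 other miRNAs with at least 1000 CPM. Closest to miR-221-3p were miR-191-5p at 0.14, miR-125b-1-3p at 0.15, miR-151-5p at 0.15, miR-26b-5p at 0.16 and miR-206-3p at 0.17. miR-222-3p came eighth at 0.19, where the median of the 88 was 0.37. Closest to miR-222-3p were miR-98-5p at 0.11, miR-26b-5p at 0.11, miR-151-5p at 0.12, miR-196a-5p at 0.12 and miR-25-3p at 0.13, and miR-221-3p came eighth. miR-26b-5p and miR-151-5p were on both lists. Because miR-221-3p was nearly flat, with an SD of 0.08, its distance to another miRNA mostly reflects that miRNA's own spread. The place of each guide on the other's list therefore does not show whether they share a pattern. miR-98-5p, like miR-222-3p, was lowest in freeze-dried replicate 2, at 1618 CPM, and next lowest in not freeze-dried replicate 1, at 1915 CPM. The other 3 libraries had it at 2215, 2398 and 1947 CPM.

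Other miRNAs of the X chromosome and of growth control also had no calls. Of a list of 53 strands from other X-linked hairpins, 51 were in the table, 25 were tested and 0 were called. Fitted fold changes were above 1 for 12 of them and below it for 13. Their median on the log2 scale was -0.05, against 0.02 over all tested miRNAs. The most abundant were miR-351-5p (6478 and 6535 mean CPM, log2 fold change 0.01, SE 0.55) and miR-322-3p (4243 and 5794 mean CPM, log2 fold change 0.45, SE 0.87), both of a cluster linked to cell cycle arrest. Another 21 strands of that list had 0 counts in all libraries, miR-363-3p and miR-106a-5p of the X-linked paralog of the miR-17~92 cluster among them.

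The list of growth-promoting miRNAs, a group to which miR-221 and miR-222 are often assigned, had 12 of 14 members tested and 0 called, with 6 above 1 and 6 below and a median log2 fold change of -0.06. It was led by miR-21a-5p (log2 fold change -0.28, SE 0.33) and miR-92a-3p (-0.18, SE 0.81). The list of growth-restraining miRNAs had 13 of 16 tested and 0 called, with 9 above 1 and 4 below and a median of 0.25. It was led by miR-143-3p (log2 fold change -0.66, SE 0.26) and miR-26a-5p (0.09, SE 0.28). As raw shares, the growth-promoting list took 13.4% to 21.4% without freeze-drying and 10.9% to 18.02% after it, with overlap. The growth-restraining list took 10.2% to 10.9% and 5.42% to 8.29%, without overlap and lower after freeze-drying, although most of its members had fitted fold changes above 1. Among all tested miRNAs taken singly, 9.79% were likewise lower without overlap on raw shares. Its most abundant tested member, miR-143-3p, had means of 68975 CPM without freeze-drying and 43504 CPM after it. The part of miR-143-3p in the list's share was not tested.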

How the data were processed

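Small RNA libraries of EVs were prepared from extracted RNA and cut to a size range of 126 to 169 bp (labels' protocols). The authors deposited raw read counts per mature miRNA in 1 table of 1966 rows and 5 libraries. Bowtie 1.1.2, featureCounts 1.5.0-p1, cutadapt 2.3 and bcl2fastq 2.20 appear in the submitters' processing notes without a stated role, as does the build GRCm38. Which miRNA annotation was counted, and how multiply matching reads, strand and duplicates were handled, is not given in the sources used here. Columns were matched to samples through the sample names in the labels, and groups were taken from the titles.

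Counts were tested in R 4.3.3 by the robust quasi-likelihood F test of edgeR 4.0.16, after TMM normalisation and filterByExpr with the groups, with Benjamini-Hochberg adjustment over the 327 miRNAs tested, threshold 0.05. The SE is the log2 fold change divided by the square root of F. Shares and sums were compared by exact permutation (two-sided, scipy 1.17.1), and shares have exact (Clopper-Pearson) 95% intervals. For a count of 0 the upper end of that interval is given. Log2 CPM used a prior count of 2. Hairpins were folded with RNAfold 2.7.2, and sequences came from RefSeq (GRCm38.p6), with 3 of the 4 members matched. Functions were tested on simulated counts.

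The members and lists, and the alternatives, were chosen with earlier results of these data known. Named are the members, their neighbours in rank and in 5p share, the 5 miRNAs most like each guide, and the 2 most abundant tested members of the X-linked, growth-promoting and growth-restraining lists. Marker lists of mesenchymal, endothelial, leukocyte, red cell, hepatocyte and epithelial miRNAs were also set. Alternatives were DESeq2 1.42.0, other normalizations, limma-voom (limma 3.58.1), other filters, thinning to 131507 counts, leaving out each library, a replicate block, depth class as a term and deep libraries only.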

Additional observations from a re-analysis of the deposited data

How the results depend on the processing

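The 4 strands were called in none of the alternatives run. The count of 0 called miRNAs became 4 under the replicate block (miR-6239, miR-6240, miR-6538 and miR-3069-3p) and 1 in the deep libraries alone (miR-6239), with no member among them. The replicate numbers make only 2 pairs, whose deviations correlated at 0.17 and -0.12, so they do not show that the samples were paired. miR-221-5p could not be fitted after thinning, where it fell under the filter. The log2 fold change of miR-221-3p was negative under all alternatives but 1 (range without 1 library -0.17 to 0.050). That of miR-222-3p became 0.0058 with limma-voom, 0.013 with a mean count of at least 10, 0.030 with depth class as a term and 0.064 in the deep libraries (-0.11 to 0.11 without 1 library). miR-221-5p became -1.49 with limma-voom and -1.83 with the replicate block (-0.39 to 1.79 without 1 library). miR-222-5p became 3.57 with limma-voom, 0.013 with a mean count of at least 10, 1.62 with the replicate block, 3.27 with depth class as a term and 9.21 in the deep libraries (-1.41 to 10.3 without 1 library). With limma-voom the 5p strands thus each changed sign, and the cause was not tested. The difference in summed level, freeze-dried minus not, of -900 CPM ranged from -1885 to 146 without 1 library, and was -3116 CPM on raw totals and -3350 CPM after thinning. The difference in miR-222-3p share of the 3p strands ranged from -2.70 to 4.22 percentage points without 1 library, that in the 5p share of miR-221 from -0.0253 to 0.275, and that in the 5p share of miR-222 from -1.07 to 1.14. On a log2 ratio the 5p difference of miR-221 was -1.13. The settings for the spread between libraries were added after the data were seen. The 5p strands rest on few counts, such as 3 of miR-221-5p in the shallowest library. Their counts of 0 were in deep libraries, freeze-dried replicate 2 for miR-221-5p and not freeze-dried replicate 1 for miR-222-5p.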

Other observations

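The short marker lists set for endothelial, blood, liver and epithelial cells each took under 1% of the counts. miRNAs outside those lists that are linked to other tissues were not all low, such as miR-1a-3p and miR-206-3p of muscle at 2374 and 1346 mean CPM and miR-182-5p and miR-183-5p of epithelial and sensory cells at 3050 and 2766, chosen after their values were seen. The endothelial miR-126a-3p had means of 261 CPM without freeze-drying and 125.1 CPM after it (log2 fold change -1.08, SE 1.17, edgeR adjusted p = 0.98), where miR-221-3p had 16187 and 15382 CPM. The leukocyte list took 0.0114% to 0.0278% of the counts without freeze-drying and 0% to 0.00883% after it, with 2 of 4 members at 0. The red cell list took 0.0758% to 0.120% and 0.0922% to 0.170%, the hepatocyte miR-122-5p 0.00912% to 0.0296% and 0.00946% to 0.0296%, and the epithelial list 0.0707% to 0.0736% and 0.0203% to 0.0421%, with 3 of 7 members at 0. No tested member of these lists was called.

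The minor strand of miR-222 was higher in the shallow libraries of both groups. Among the name-matched hairpins with a minor strand share in every library, that share was higher in both shallow libraries than in every deep one for 11, or 10.9%, and lower for 5, or 4.95%. miR-222 was one of the 11, at 2.21% and 2.50% against 0% to 0.534%. miR-221 was not, at 0.148% and 0.173% against 0% to 0.601%. The hairpins lie 504 bases apart, and their passenger strands were high in different libraries: miR-221-5p in freeze-dried replicate 1, and miR-222-5p in the 2 shallow libraries, whose intervals overlap.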
